A study of Mus musculus with 6 samples.

Results

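Lewis lung carcinoma (LLC) cells that carried a short hairpin RNA against Spp1 were compared with LLC cells labelled sh Ctrl, on 1 array each, so LLC held 2 of the 6 arrays. The arrays were chosen by the cell line label and the sample title. The other 4 arrays came from AE17 malignant mesothelioma and MC38 colon adenocarcinoma cells, with the same pair of arrays in each line, and served as the background. All were mouse cancer lines grown in culture medium with 10% fetal bovine serum. Because the genotype given for the sh Ctrl cells is wild type, it is unclear whether a control hairpin was used in them. Whether the hairpin cells were 1 clone or a mixed population is not given in the sources used here. Spp1 expression was not analysed here, so every direction below rests on the labels.

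Spp1 encodes osteopontin, a secreted phosphoprotein that binds integrins and Cd44 on the surface of the same or neighbouring cells. It acts in adhesion, migration and matrix remodelling, and many carcinomas secrete it. Chemokines are small secreted proteins that call leukocytes into a tissue, those of the CC class mainly monocytes and lymphocytes, and those of the CXC class with an ELR motif mainly neutrophils.

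With 1 array a side no value in LLC has a replicate. The hairpin, the culture and the array cannot be told apart, and the number of arrays limits the precision. Levels are log2 intensities after quantile normalisation over the 6 arrays. A ratio is the level on the sh Spp1 array minus that on the sh Ctrl array of the same line. A level of 4.49, the 30th percentile of all probe sets, was taken as the brightness floor. In RNA from whole cultures, fewer cells that express a gene and less RNA per cell cannot be told apart.

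Of 16561 genes counted in LLC, 285 (1.72%) had a log2 ratio of at least 1 and 291 (1.76%) of -1 or less. The median ratio was 0.03 with a standard deviation of 0.45 over genes, and with 5% of genes left out at either end the ratios ran from -0.69 to 0.69. In AE17 9.97% of genes were at least 1 higher and 8.67% at least 1 lower, and in MC38 0.872% and 1.66%. The split in LLC rests on the normalisation. In the intensities as deposited 133 genes were at least 1 higher and 2516 at least 1 lower, with a median of -0.46. The deposited ratio climbed with brightness, from a median of -0.82 in the dimmest of 5 bins of genes to 0.15 in the brightest. After quantile normalisation the medians of these bins ran from -0.01 to 0.09. With each array centred on its median the counts were 2693 higher and 139 lower. Lists and genes below are therefore read against the median of all genes.

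**Figure D1:**
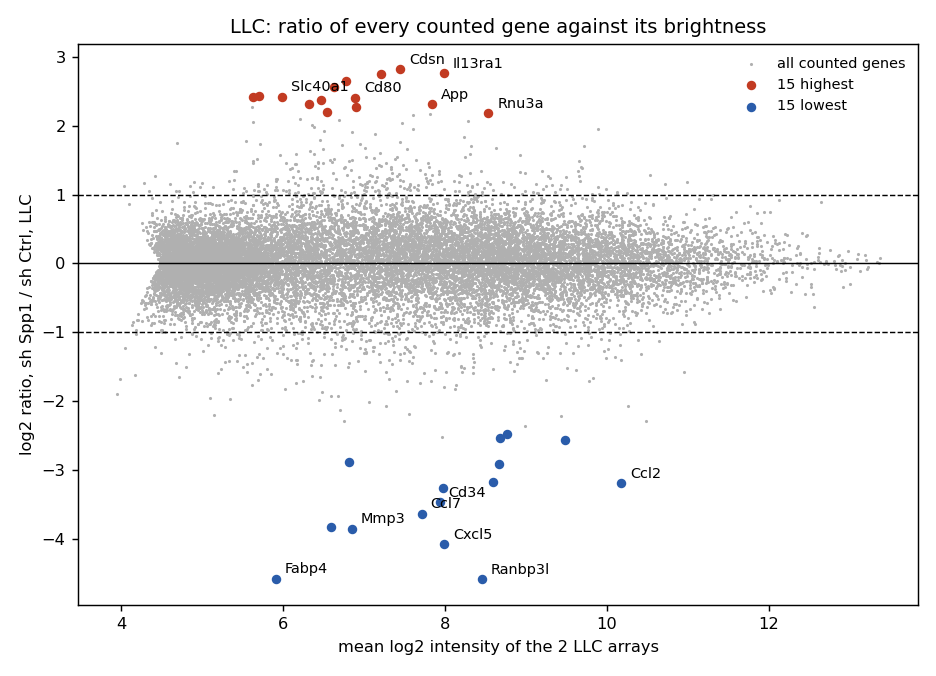
Log2 ratio of sh Spp1 over sh Ctrl in LLC (vertical axis) against the mean log2 intensity of both LLC arrays (horizontal axis), 1 point per counted gene, 16561 in all. The 15 highest genes (red) lie between 2.18 and 2.82 and the 15 lowest (blue) between -4.58 and -2.48; dashed lines mark 1 and -1.

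The cells were checked against markers of their label. Vim, the intermediate filament of mesenchymal cells, read 13.09 and 12.75 on the sh Ctrl and sh Spp1 arrays, while the epithelial cadherin Cdh1 read 5.31 and 5.57. Epcam, an epithelial adhesion molecule, was under the floor on both. Other epithelial genes were brighter, with the keratins Krt8 at 8.88 and 8.31 and Krt18 at 8.75 and 9.62, and Ocln at 7.13 and 6.87. Of 16 lung epithelium markers 12 were under a level of 6 on both arrays, among them the surfactant genes Sftpb and Sftpc, and the club cell gene Scgb1a1 was under the floor on both. Their summed level was 9.49 and 9.64. Of 18 macrophage and leukocyte markers 16 were under 6 on both, and Ptprc, which encodes the pan-leukocyte antigen CD45, was at 3.1 and 3.0. All 10 T and B cell markers and 10 of 12 endothelium markers were also under 6. The brightest markers of lung epithelium were the lipid transporter Abca3 at 7.73 and 7.99 and the water channel Aqp5 at 6.54 and 6.34, and of leukocytes the lysosomal Cd68 at 6.51 and 7.43.

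The lowest ratios in LLC included several secreted signals. The CC chemokine Ccl2 (Entrez gene 20296), the main attractant of monocytes, read 11.78 on the sh Ctrl array and 8.59 on the sh Spp1 array. In AE17 Ccl2 read 11.83 and 10.54, and in MC38 12.16 and 10.18. The sh Spp1 array was the dimmer one in each line, and the LLC ratio of -3.19 is a 9.13-fold lower level. Its neighbour Ccl7 (20306), another monocyte attractant, read 9.53 and 5.90 in LLC, with 10.17 and 9.62 in AE17 and with 9.69 and 6.94 in MC38. The LLC ratio of Ccl7 was -3.63, 12.4-fold lower. Over the 14 listed CC chemokines, all of them counted, 11 were below 0 in LLC and 3 above, with 2 at least 1 lower and a median of -0.36. The list does not hold Ccl1, at 0.09, or Ccl12, at 0.97 but under the floor on both LLC arrays. The list's medians were -0.32 in AE17 and 0.02 in MC38. Ccl20, an attractant of Ccr6-bearing lymphocytes and dendritic cells, was at -0.96 and Ccl9 at -0.75, and the highest of the list was Ccl25 at 0.50.

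Among CXC chemokines the neutrophil attractant Cxcl5 (20311) stood lowest. It read 10.03 and 5.96 in LLC, with 6.33 and 5.14 in AE17 and with 5.24 and 5.02 in MC38. The LLC sh Ctrl array was the only one of the 6 on which Cxcl5 was above 7, and the ratio there was -4.07, 16.8-fold lower. Ppbp (57349), which encodes the platelet chemokine precursor, read 8.26 and 5.39 in LLC, with 11.55 and 5.13 in AE17 and with 5.53 and 5.52 in MC38. Cxcl1 (14825), a neutrophil attractant next to them on the chromosome, read 7.67 and 6.39 in LLC, with 8.03 and 6.28 in AE17 and with 7.15 and 5.58 in MC38. Its 3 ratios, -1.29, -1.75 and -1.57, were close to each other, unlike those of Cxcl5 and Ppbp. Cxcl12, the ligand of Cxcr4, went the other way in LLC, from 5.39 to 6.46, with ratios of 0.08 and 0.17 in AE17 and MC38. Of 14 listed genes, CXC chemokines with Cx3cl1, 12 were counted, 9 of these were below 0 and the median was -0.06. The list does not hold Ppbp, at -2.87, or Pf4, at -0.68, so neither is in that count or median.

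**Figure D2:**
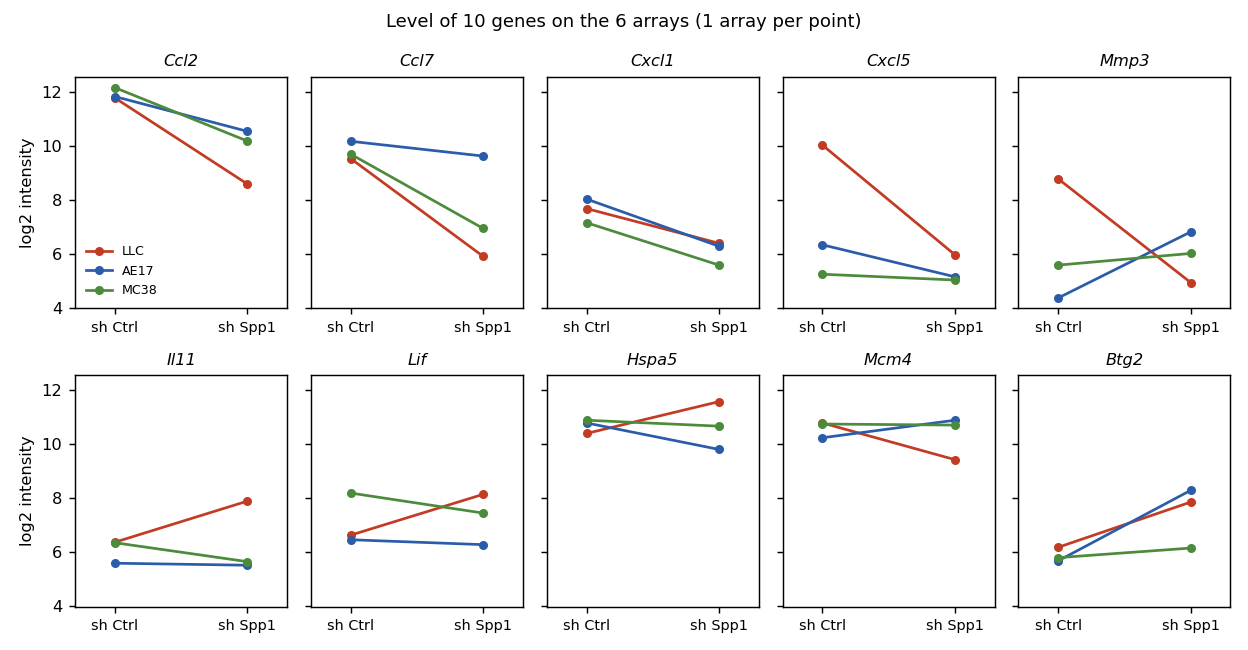
Log2 intensity (vertical axis) of 10 genes on the sh Ctrl and sh Spp1 arrays (horizontal axis) of LLC, AE17 and MC38, 1 array per point and 1 line per cell line. Ccl2 and Cxcl1 are lower on the sh Spp1 array in each line, while Cxcl5 goes from 10.03 to 5.96 in LLC and Mmp3 from 8.78 to 4.93.

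The lowest chemokines lay in pairs of neighbouring genes, by the gene order of RefSeq assembly GRCm38.p6. In the cluster that runs Cxcl5, Ppbp, Pf4, Cxcl3, Cxcl15, Cxcl1 and Cxcl2, all 7 ratios were below 0 in LLC, where 52.7% of all counted genes were above 0. All but Cxcl15, at 0.13, were also below 0 in AE17, and all but Cxcl2, at 0.05, in MC38. Pf4, the platelet factor that is the next gene after Ppbp, was at -0.68, and Cxcl2, which also attracts neutrophils, was at -0.31. Cxcl3 and Cxcl15 were under the floor on both arrays. The flanking gene Mthfd2l, a mitochondrial folate enzyme, was at 0.70. In the CC cluster Ccl2 and Ccl7 are adjacent and are followed by Ccl11 at -0.48, Ccl12, which was under the floor on both arrays with a ratio of 0.97, and Ccl8 at 0.42. The genes of these clusters outside the chemokine lists were looked up after the values of their neighbours were seen.

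Genes of the NF-kB system, a set of transcription factors that induces many chemokines, had no common direction. Of 18 counted members 11 were above 0 and the median was 0.14. Nfkb2, the p100 subunit, was at 1.15 and Rel at 1.02, whereas Bcl3, a nuclear cofactor, was at -1.10 and the inhibitor Nfkbia at -0.84. Ptgs2, the inducible cyclooxygenase, read 11.68 and 12.59 in LLC, a ratio of 0.91, against -1.30 and -0.38 in AE17 and MC38.

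Of the interleukin 6 family of cytokines, Il11, Lif and Clcf1 were at least 1 higher in LLC and Osm was not. Il11, a gp130 ligand, read 6.37 and 7.89 in LLC, with 5.59 and 5.51 in AE17 and with 6.35 and 5.64 in MC38. Lif, the leukemia inhibitory factor, read 6.63 and 8.14 in LLC, with 6.46 and 6.28 in AE17 and with 8.19 and 7.45 in MC38. The related ligand Clcf1 went from 6.68 to 7.69 in LLC. Il11 and Lif were thus higher on the sh Spp1 array in LLC and lower on it in both other lines. Osmr, the receptor chain for oncostatin M, read 8.07 and 6.07 in LLC, with 5.39 and 9.42 in AE17 and with 8.52 and 8.04 in MC38. Il6st, the shared chain gp130, was at -0.27, Lifr at -0.45 and Il6ra at -0.46, and oncostatin M itself, Osm, at -0.27. Of 13 counted cytokines and colony-stimulating factors 6 were above 0, with a median of -0.22 that turned to 0.62 above that of all genes with the floor at the 50th percentile. Il18, a cytokine activated by the inflammasome, was lowest at -1.07, and Csf1, the macrophage growth factor, was at 0.66.

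Il13ra1 (16164), a chain of the receptor for interleukins 4 and 13, had the second highest ratio in LLC. It read 6.61 and 9.37 in LLC, with 10.38 and 10.98 in AE17 and with 4.45 and 4.32 in MC38. The LLC ratio was 2.76, and the partner chain Il4ra was at -0.34. Il1rl2, the interleukin 36 receptor, was at 1.21. Ligands that act on T and NK cells also included high ratios. Cd80 (12519), which engages Cd28 and Ctla4, read 5.69 and 8.10 in LLC, with 5.18 and 5.6 in AE17 and with 4.94 and 4.47 in MC38. The ratio in LLC was 2.41, or 5.30-fold. H60b, a ligand of the receptor NKG2D, was at 1.39 and Cd274, which encodes PD-L1, at 0.81. The list of 15 counted checkpoint ligands had 8 members above 0 and 7 below, and a median of 0.05. Lgals9, galectin 9, was its lowest at -1.08.

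The receptors of osteopontin differed little in LLC. The 9 counted genes of 11 listed lay between -0.25 for the integrin chain Itga8 and 0.43 for Itga9, with a median of 0.08. Cd44 was at 0.15, Itgav at -0.13, Itgb3 at 0.12 and Itgb1 at 0.08. In AE17 the same list had a median of 0.58, with 3 members at least 1 higher.

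Among proteases of the matrix, 3 genes of 1 chromosomal cluster were at least 1 lower in LLC. Mmp3 (17392), stromelysin 1, read 8.78 and 4.93 in LLC, with 4.36 and 6.81 in AE17 and with 5.58 and 6.01 in MC38. Its LLC ratio was -3.85, approximate because the sh Spp1 level lay close to the floor, while AE17 had 2.45. Mmp13, a collagenase, read 6.07 and 4.12 in LLC, with 4.53 and 5.64 in AE17 and with 6.40 and 4.69 in MC38. Mmp10, stromelysin 2, read 5.98 and 4.95 in LLC, with 5.79 and 8.16 in AE17 and with 8.75 and 7.75 in MC38. Mmp3, Mmp10 and Mmp13 were all lower on the sh Spp1 array in LLC and all higher on it in AE17. Mmp13 ended under the floor in LLC. On the AE17 sh Ctrl array Mmp3 was under the floor and Mmp13 close to it, so the sizes of these ratios are approximate too. Of 16 counted metalloproteinases and TIMPs 10 were below 0, with a median of -0.12. Mmp14, the membrane-bound protease, was at -0.03 and the inhibitor Timp1 at 0.47. In the run from Mmp13 to Mmp7 on the chromosome, Mmp12, Mmp1b, Mmp1a and Mmp20 were under the floor on both LLC arrays, the collagenase Mmp8 was at 4.55 on both, and Mmp27 and Mmp7 were at -0.12 and -0.55.

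**Figure D3:**
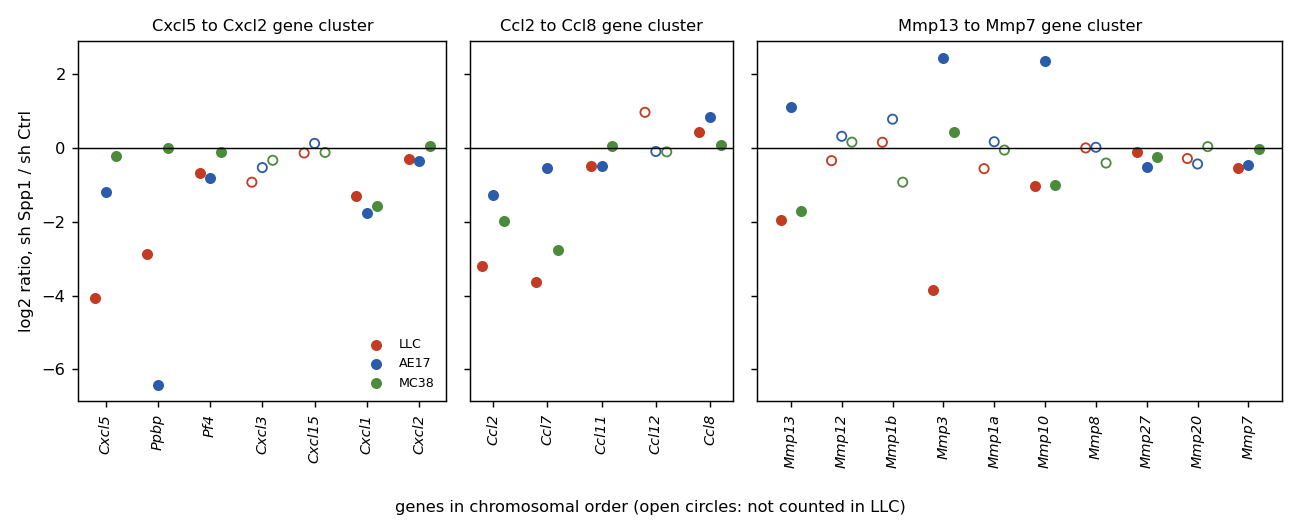
Log2 ratio of sh Spp1 over sh Ctrl (vertical axis) for the genes of 3 clusters in chromosomal order (horizontal axis), coloured by cell line, with open circles for genes not counted in LLC. Cxcl5, Ppbp, Ccl2, Ccl7 and Mmp3 lie at -2.87 or below in LLC, and Mmp3, Mmp10 and Mmp13 lie above 0 in AE17.

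The promoters of these 3 proteases are shown because they share a letter pattern. Each is the stretch of 250 bases before the start site in RefSeq, build GRCm38.p6, and capitals mark TGANTCA, the core of AP-1 sites, to which Fos and Jun proteins bind.
Mmp3, chr9:7445572-7445821, plus strand: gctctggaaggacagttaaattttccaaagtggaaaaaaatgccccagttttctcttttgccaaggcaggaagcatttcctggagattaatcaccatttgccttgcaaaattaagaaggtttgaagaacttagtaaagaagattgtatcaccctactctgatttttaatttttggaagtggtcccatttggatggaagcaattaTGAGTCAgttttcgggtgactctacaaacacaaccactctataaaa
Mmp10, chr9:7502092-7502341, plus strand: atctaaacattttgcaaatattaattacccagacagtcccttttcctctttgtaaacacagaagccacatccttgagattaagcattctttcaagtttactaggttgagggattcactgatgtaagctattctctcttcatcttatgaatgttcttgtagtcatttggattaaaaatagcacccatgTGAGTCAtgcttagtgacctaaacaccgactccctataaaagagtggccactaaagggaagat
Mmp13, chr9:7272264-7272513, plus strand: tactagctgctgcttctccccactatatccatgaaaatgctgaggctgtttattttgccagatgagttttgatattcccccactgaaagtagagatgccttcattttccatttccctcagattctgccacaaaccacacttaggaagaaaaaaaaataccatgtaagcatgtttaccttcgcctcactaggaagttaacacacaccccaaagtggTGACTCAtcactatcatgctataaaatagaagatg
The match starts 46 bases before the start site in Mmp3, 63 in Mmp10 and 35 in Mmp13. In windows from 250 bases before the start to 50 after, read on both strands, 4 of 14 genes of the list with a window held TGANTCA (28.6%), against 7.81% of all 32851 windows and 6.94% of the counted genes with one. The 4 were Mmp3, Mmp10, Mmp13 and Mmp12. Among AP-1 genes themselves, Junb was at 0.94, Jun at 0.26 and Fos at -0.09 in LLC. For chemokines the pattern GGGANTTCC of NF-kB sites was in 1 of 9 genes of the CC list with a window, Ccl25. It was in 2 of 10 such genes of the CXC list, Cxcl9 and Cxcl10, against 1.68% of all windows and 2.45% of counted genes. Ccl2, Ccl7 and Cxcl5 had no window, so their promoters were not searched. None of these letter patterns or that of E2F contains another. A match describes letters only, and whether any factor binds there was not tested.

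In the plasminogen system the activators Plat and Plau were lower in LLC and the urokinase receptor was higher. Of the other counted members Anxa2 was at -0.30, S100a10 at -0.35, Plgrkt at -0.15 and Plg at 0.00. Plat, tissue plasminogen activator, read 8.10 and 6.79 in LLC, a ratio of -1.31 against 0.25 in AE17 and 0.62 in MC38. Plau, urokinase, was at -0.84 in LLC. Plaur, the urokinase receptor, read 7.51 and 8.71 in LLC, with 8.11 and 9.54 in AE17 and with 8.57 and 9.19 in MC38. Plaur was therefore higher on the sh Spp1 array in each line, and both activators were lower in LLC and higher in the others.

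Structural matrix genes included low ratios in LLC, where 52.7% of all counted genes were above 0. Of 24 counted glycoproteins and proteoglycans 16 were below 0, 5 of them at least 1 lower, and the median was -0.25, against 1.17 in AE17 and -0.07 in MC38. Dpt (56429), dermatopontin, read 10.76 and 8.20 in LLC, with 8.65 and 10.14 in AE17 and with 4.16 and 4.07 in MC38. Thbs2, an antiangiogenic thrombospondin, read 11.63 and 9.35 in LLC, with 5.71 and 9.98 in AE17 and with 9.77 and 9.93 in MC38. Both genes were lower in LLC and higher in AE17, with ratios of -0.09 and 0.16 in MC38. The small proteoglycans Bgn and Dcn were at -1.30 and -1.20, although the second probe set of Bgn was at 0.00. Of 23 collagens 15 were below 0. Col6a1 and Col6a2, chains of the beaded collagen VI, were at -1.16 and -1.03, and Col3a1 at -0.81, while Col5a2 was at 1.45. Fibroblast markers, of which 9 of 10 were counted, had 8 members below 0 and a median of -0.76, against 1.95 in AE17 and -0.64 in MC38. Their summed level was 10.84 on the sh Ctrl array and 10.11 on the sh Spp1 array. Pdgfra, which encodes a PDGF receptor chain, was lowest with 8.56 and 6.83, and Pdgfrb, at 0.43, was the only counted member above 0. Of the 10 markers 6 were under a level of 6 on both LLC arrays. Of the 9 counted fibroblast markers Dcn, Col1a1, Col1a2 and Col3a1 are also counted among the matrix and collagen lists, and the part of a shift in cell make-up was not tested.

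Genes of DNA synthesis were lower together in LLC. In the list for DNA replication, 35 of 36 listed genes were counted, 32 were below 0, 9 at least 1 lower and none at least 1 higher. The median was -0.63, against 0.03 over all genes, -0.07 for the list in AE17 and -0.04 in MC38. Relative to all genes it was -0.65, and -0.19 in the intensities as deposited. Gins2, a subunit of the replicative helicase, read 9.14 and 7.55 in LLC, with 9.75 and 9.40 in AE17 and with 9.86 and 9.62 in MC38. Prim2, the large primase subunit, read 10.27 and 8.76 in LLC, with 10.60 and 9.79 in AE17 and with 10.49 and 10.27 in MC38. Mcm4 of the MCM helicase read 10.79 and 9.43 in LLC, with 10.24 and 10.89 in AE17 and with 10.75 and 10.71 in MC38. Its partner Mcm7 was at -1.38 in LLC. Cdt1, which loads the helicase in G1, was the highest member at 0.35, and Orc1 and Pold2 were the other 2 above 0.

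Factors that supply nucleotides or act in S phase gave a median of -0.76, with 22 of 26 counted genes below 0 and 5 at least 1 lower. Tk1, thymidine kinase, read 9.10 and 7.59 in LLC, with 8.70 and 10.53 in AE17 and with 9.88 and 9.61 in MC38. Tyms, thymidylate synthase, was at -1.29, Chaf1b, a histone chaperone subunit, at -1.33 and the repair gene Brca1 at -1.30. The medians of this list were -0.23 in AE17 and -0.02 in MC38. Genes of mitosis and G2/M were nearer 0, with 25 of 33 below 0 and a median of -0.29, which turned to 0.16 above that of all genes in the intensities as deposited. Ttk, a spindle checkpoint kinase, was lowest at -1.15 and Cdc25b, a phosphatase that activates Cdk1, highest at 0.73. Cell cycle genes of G1 had a median of 0.09 and 14 of 18 above 0, with Ccnd1 at 0.33, Ccnd2 at 0.52 and Rb1 at 0.68. Histone genes, 19 counted of 49 listed, had a median of -0.44 in LLC against 1.20 in AE17, but their near-identical copies can share probes.

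Promoters of 3 replication genes with ratios below 0 are shown because they hold the letters TTTNGCGC, a core of the sites of E2F factors, which drive S-phase genes. Cdt1 and Orc1, above 0 in LLC, also hold it. Capitals mark the matches on either strand in the 250 bases before the start site in RefSeq, build GRCm38.p6.
Mcm5, chr8:75109259-75109508, plus strand: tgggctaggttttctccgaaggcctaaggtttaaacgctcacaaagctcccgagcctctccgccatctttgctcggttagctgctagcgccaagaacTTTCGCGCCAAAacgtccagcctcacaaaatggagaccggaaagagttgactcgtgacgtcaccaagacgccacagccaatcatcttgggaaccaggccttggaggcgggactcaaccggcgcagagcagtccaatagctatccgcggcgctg
Mcm6, chr1:128359706-128359955, minus strand: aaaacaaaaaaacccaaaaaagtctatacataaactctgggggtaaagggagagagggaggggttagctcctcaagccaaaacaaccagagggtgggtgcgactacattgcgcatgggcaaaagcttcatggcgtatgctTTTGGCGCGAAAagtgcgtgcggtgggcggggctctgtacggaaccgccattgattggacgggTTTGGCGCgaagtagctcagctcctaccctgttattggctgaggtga
Rfc3, chr5:151651209-151651458, minus strand: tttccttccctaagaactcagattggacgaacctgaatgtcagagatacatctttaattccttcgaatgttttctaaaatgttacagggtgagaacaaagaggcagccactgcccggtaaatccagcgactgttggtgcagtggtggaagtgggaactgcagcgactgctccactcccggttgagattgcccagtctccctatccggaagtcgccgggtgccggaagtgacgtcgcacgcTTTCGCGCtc
Mcm5 holds 2 overlapping matches and Mcm6 holds 3, of which 2 overlap. In the longer windows, from 250 bases before the start to 50 after, 10 of 28 replication genes held the pattern (35.7%), 5 of 24 genes of nucleotide supply and S phase (20.8%) and 1 of 26 of mitosis (3.85%), against 1.38% of all windows and 2.45% of the counted genes with a window. The 10 replication genes with a match had a median ratio of -0.84 in LLC and the 18 without one -0.43. Gins2, Prim2 and Mcm4 had no window and are in neither group. In the list of nucleotide supply and S phase the medians were -0.74 with and -0.78 without a match. Mcm5 was at -0.60, Mcm6 at -0.78 and Rfc3, a clamp loader subunit, at -1.12.

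Targets of p53, the tumour suppressor that halts the cycle after damage, were mostly above 0 in LLC. Of 29 counted genes 24 were above 0, 6 at least 1 higher and 1 at least 1 lower, and the median was 0.67, against 0.07 in AE17 and 0.15 in MC38. Btg2, an antiproliferative gene, read 6.18 and 7.85 in LLC, with 5.67 and 8.29 in AE17 and with 5.79 and 6.15 in MC38. The receptor gene Eda2r read 7.79 and 9.47 in LLC, with 4.80 and 6.51 in AE17 and with 5.27 and 4.82 in MC38. The kinase Plk2 and the autophagy regulator Trp53inp1 were at 1.32 and 1.20, and Bbc3, which encodes the killer protein PUMA, at 1.16. Of the classical targets, the Cdk inhibitor Cdkn1a was at 0.74, the p53 ligase Mdm2 at 0.71 and Ccng1 at 0.43. Trp53i11 was lowest at -1.73 and Sesn1, a regulator of mTORC1, next at -0.85. Regulators of apoptosis, a list that shares Bbc3 and Pmaip1 with the p53 targets, had a median of 0.04, with the caspase genes Casp12 at -1.76 and Casp8 at -1.01 and Pmaip1 at 0.84.

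Chaperones of the endoplasmic reticulum were mostly higher in LLC. Of 24 counted genes 22 were above 0, 4 at least 1 higher and none at least 1 lower. The medians were 0.39 in LLC, -0.25 in AE17 and -0.01 in MC38. Hspa5, which encodes the chaperone BiP, read 10.40 and 11.58 in LLC, with 10.79 and 9.81 in AE17 and with 10.89 and 10.67 in MC38. Manf, a secreted survival factor, read 6.46 and 7.58 in LLC, with 7.34 and 6.96 in AE17 and with 6.61 and 6.66 in MC38. Hyou1 and Sdf2l1, partners of BiP, were at 1.08 and 1.07. For these 4 genes the highest ratio in the other lines was the 0.32 of Hyou1 in MC38. The branch of ATF4, the factor that induces amino acid supply, stood closer to 0, with a median of 0.12 over 28 genes. Asns, Psat1 and Phgdh, which make asparagine and serine, were at 0.04, -0.05 and -0.04. Among its stress genes Ppp1r15a, which reverses the translation block, was at 1.57, Ddit3, the factor CHOP, at 0.94 and Nupr1 at 0.15. Trib3 was at 0.70 and Chac1, which degrades glutathione, at -0.71. The letters TGATGNAA of ATF4 and C/EBP sites were in 8 of 25 genes of the ATF4 list with a window (32.0%). They were in 1 of 20 such genes of the chaperone list, against 3.97% of all windows and 3.05% of counted genes. In the ATF4 list the median was 0.11 with a match and 0.32 without one.

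**Figure D4:**
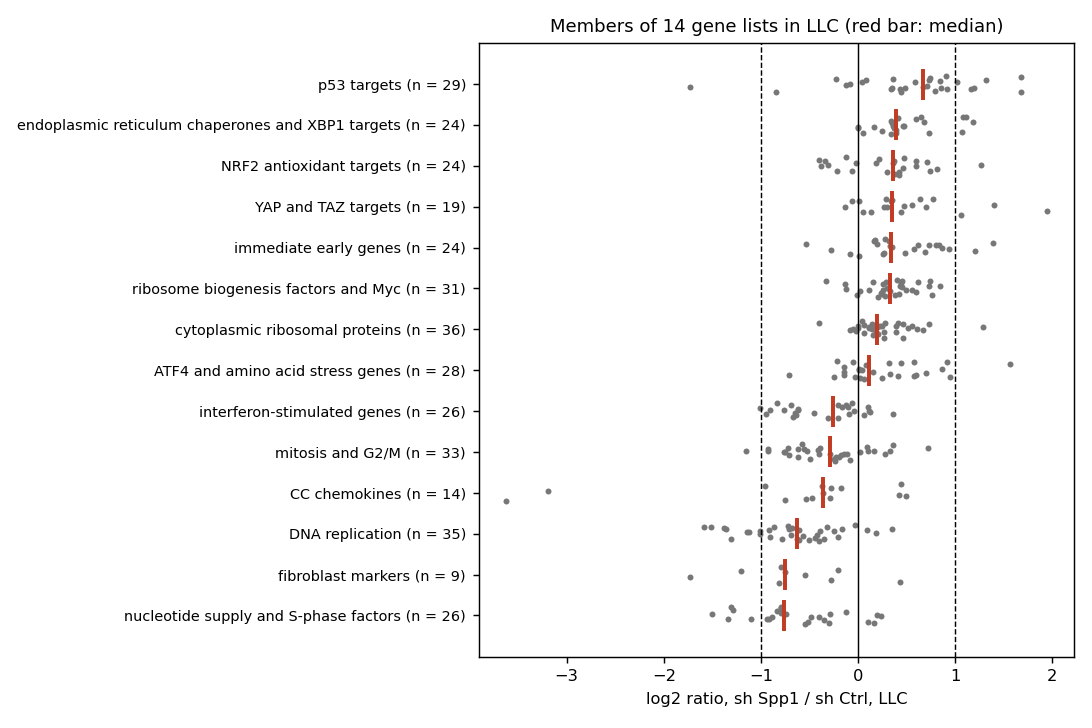
Log2 ratio of sh Spp1 over sh Ctrl in LLC (horizontal axis) for the counted members of 14 gene lists (rows), 1 point per gene with the number of genes in brackets and the median as a red bar. The medians run from 0.67 for p53 targets to -0.76 for nucleotide supply and S-phase factors; points are spread vertically for legibility only.

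Antioxidant genes driven by NRF2 had a median of 0.37, with 16 of 24 above 0. Abcc4, an exporter of cyclic nucleotides, went from 8.64 to 9.91, Hmox1, heme oxygenase, from 7.94 to 8.75, and Gstp1, a glutathione transferase, from 11.57 to 12.32. Gsr and Txn1, which keep glutathione and thioredoxin reduced, were at -0.34 and -0.31. The antioxidant response element was searched as TGACNNNGC, a pattern that can overlap TGANTCA. Of 20 genes of the NRF2 list with a window 7 held it (35.0%), against 12.4% of all windows and 16.1% of counted genes. The medians were 0.46 with and 0.22 without it. Ribosome biogenesis factors had 27 of 31 above 0 and a median of 0.33, close to the 0.36 of MC38, and none was at least 1 higher. Rrp12 and Pwp2, both of the small subunit processome or its export, were highest at 0.85 and 0.76, and Myc was at 0.26. Cytoplasmic ribosomal proteins had 30 of 36 above 0 and a median of 0.20, and many have processed copies that can share probes.

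Targets of YAP and TAZ, the effectors of the Hippo pathway, had 17 of 19 above 0 and a median of 0.35. Their medians were also above 0 in AE17, at 0.66, and in MC38, at 0.27. Ccn1, a matricellular ligand of integrins, read 8.92 and 10.87 in LLC, with 9.79 and 11.08 in AE17 and with 10.97 and 10.52 in MC38. Ankrd1, a muscle ankyrin repeat protein, was at 1.41, while Ccn2, the close relative of Ccn1, was at 0.05. The effectors Yap1 and Wwtr1 were at -0.07 and 0.28. Immediate early genes, which growth factors induce within minutes, had 21 of 24 above 0 and a median of 0.34, with 0.61 in AE17 and 0.27 in MC38. Egr1 read 6.07 and 7.46 in LLC, with 5.19 and 7.89 in AE17 and with 8.06 and 9.18 in MC38. Zfp36, which destabilises cytokine mRNAs, was at 1.20 and Nr4a2 lowest at -0.54. Feedback genes of ERK signalling had a median of 0.14, with 0.26 in AE17 and 0.27 in MC38. Ereg, a ligand of the EGF receptor, was at 1.54 with 0.69 on its second probe set, the phosphatases Dusp4 and Dusp5 at 1.35 and 1.34, and Hbegf at 0.90. Egfr itself was at -0.61.

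The size of the list medians rests on the normalisation. Relative to the median of all genes, the p53 list was at 0.65 here and 1.04 in the intensities as deposited, and the chaperone list at 0.36 and 1.09. Ribosome biogenesis factors were at 0.30 and 1.0 respectively, NRF2 targets at 0.34 and 0.89, and the ATF4 list at 0.09 and 0.80. Nucleotide supply and S-phase factors were at -0.79 and -0.32, CC chemokines at -0.39 and -0.69, and fibroblast markers at -0.78 and -0.87. YAP and TAZ targets were at 0.33 and 0.72, and immediate early genes at 0.32 and 0.62. Histones were at -0.47 and -0.03.

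**Figure D5:**
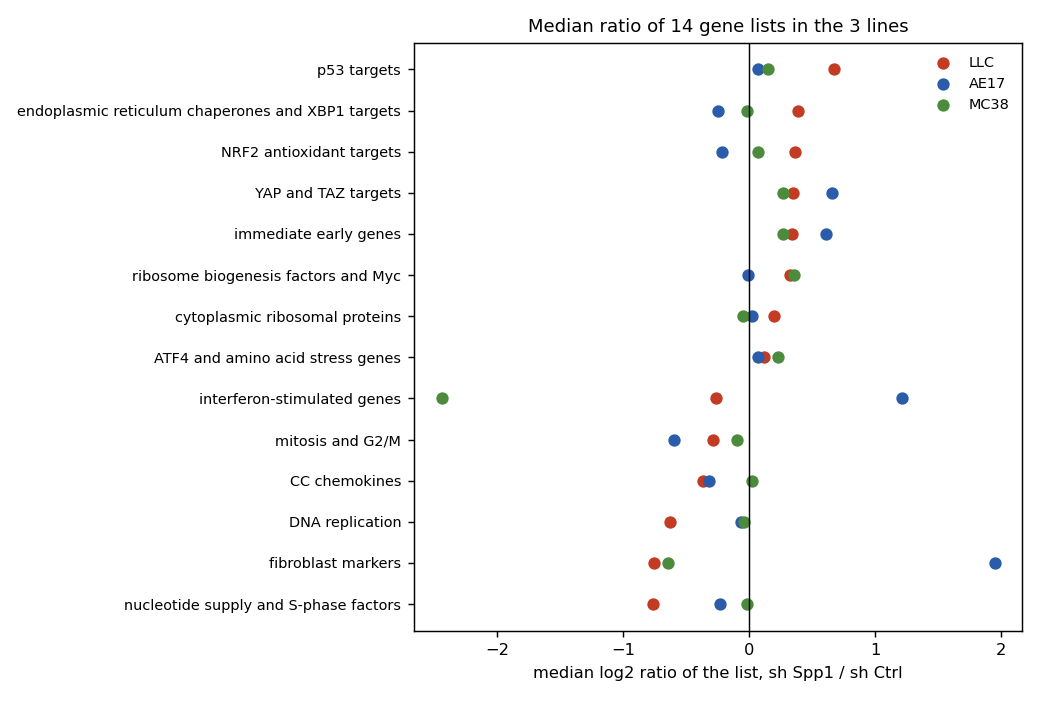
Median log2 ratio of sh Spp1 over sh Ctrl (horizontal axis) of the same 14 gene lists (rows) in LLC, AE17 and MC38, 1 point per line. In LLC the DNA replication list is at -0.63, with -0.07 in AE17 and -0.04 in MC38; fibroblast markers are at -0.76, 1.95 and -0.64.

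Among developmental pathways, Notch had a median of 0.08. Its ligand Jag1 read 5.67 and 7.32 in LLC, with 4.22 and 7.64 in AE17 and with 6.60 and 7.0 in MC38, and Notch1 was at 1.17. Wnt genes had a median of 0.07. The secreted modulators Dkk2 and Frzb were lowest at -2.91 and -1.33, and the receptor Lgr4 highest at 0.95. Of the TGF-beta and BMP genes Bmp4 was at -1.46 and its target Id3 at -0.96, while Skil, which represses Smad targets, was at 1.36. Angiopoietins 1 and 2, Angpt1 and Angpt2, were at -1.06 and -1.30, with 0.49 on the second probe set of Angpt1, and the receptor Nrp1 was at 1.43. Fgf7, a growth factor for epithelium, went from 9.79 to 8.50. Genes of hypoxia and glycolysis had a median of 0.07, although Stc1 and Bnip3 of that list were at -3.82 and -1.16 and Ndrg1 at 1.01. Interferon-stimulated genes had 21 of 26 below 0 and a median of -0.26, against 1.22 in AE17 and -2.44 in MC38.

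The remaining genes at the low end have varied roles. Ranbp3l (223332), a Ran-binding export factor, read 10.75 and 6.16 in LLC, with 8.20 and 3.96 in AE17 and with 3.91 and 3.75 in MC38. Fabp4 (11770), the fatty acid carrier of adipocytes, read 8.20 and 3.63 in LLC, with 8.36 and 5.69 in AE17 and with 4.84 and 4.42 in MC38. In LLC Fabp4 ended under the floor, so the size of its ratio is approximate. Stc1 (20855), the hormone stanniocalcin, read 8.50 and 4.68 in LLC, with 4.21 and 4.97 in AE17 and with 3.99 and 3.83 in MC38, so that only the LLC sh Ctrl array had it clearly over the floor. The sialomucin Cd34 went from 9.67 to 6.20, the redox protein Prxl2a from 9.61 to 6.35, the organic anion transporter Slco4a1 from 10.18 to 7.01 and the insulin-like growth factor binding protein Igfbp7 from 10.01 to 7.53. Of the 15 lowest genes 9 were below 0 in both other lines. Of all counted genes 52.8% were below 0 in AE17 and 47.5% in MC38, and the share below 0 in both was not computed.

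At the high end, Cdsn (386463), corneodesmosin of the skin barrier, read 6.04 and 8.86 in LLC, with 7.91 and 7.30 in AE17 and with 5.25 and 5.22 in MC38. Car6, a secreted carbonic anhydrase, read 5.84 and 8.59 in LLC, with 7.95 and 4.47 in AE17 and with 7.36 and 7.90 in MC38. Avil, an actin-severing protein, was at 2.65, and Cacna1i, a T-type calcium channel, at 2.55. For these 4 genes the highest of the other lines' ratios was 0.54. Ano3, of the anoctamin family, was at 2.43, the iron exporter Slc40a1 at 2.42, Cyp27b1, which activates vitamin D, at 2.38 and Mamdc2 at 2.32. App, the amyloid precursor, read 6.68 and 8.99 in LLC, with 6.33 and 10.28 in AE17 and with 9.23 and 9.78 in MC38. H2-M10.1 and H2-Q10 belong to the class I gene family, whose copies can share probes, and were at 2.42 and 2.28, with 0.39 on the second probe set of H2-Q10. The taste receptor gene Tas2r143 was at 2.19, and Rnu3a, a copy of the U3 small nucleolar RNA gene, at 2.18. Of the 15 highest genes 5 were above 0 in both other lines. Of all counted genes 47.2% were above 0 in AE17 and 52.5% in MC38, and the share above 0 in both was not computed.

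Genes past 1 in LLC were then set against the other lines. Of the 285 higher genes 155 were above 0 in AE17 (54.4%, against 47.2% of all counted genes) and 171 in MC38, where 52.5% of all were. Of the 291 lower genes 53.6% were below 0 in AE17, against 52.8% of all, and 63.9% in MC38, against 47.5%. Of the 285, 72 were at least 1 higher in AE17 too (25.3%, against 9.66% of all). Another 43 were at least 1 lower there, against 8.53%. In MC38 10 were at least 1 higher (3.51%, against 0.839%) and 10 at least 1 lower, against 1.51%. Of the 291, 66 were at least 1 lower in AE17 too (22.7%, against 8.53%). Another 60 were at least 1 higher there, against 9.66%. In MC38 30 were at least 1 lower (10.3%, against 1.51%) and 3 at least 1 higher, against 0.839%. A ratio of 1 or more in all 3 lines was seen for 2 genes, Egr1 and Tuba1b, the latter an alpha-tubulin gene with close copies. A ratio of -1 or less in all 3 was seen for 5, Ccl2, Cxcl1, Pdgfra, the lectin Clec1a and the ubiquitin ligase Herc6. How many of all counted genes were past 1 in both other lines was not computed. Of the genes past 1, 16 of the higher and 25 of the lower were under the floor on their dimmer LLC array.

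The difference between the LLC ratio and the mean of the AE17 and MC38 ratios was tested with limma. By this test 0 of 16797 genes (0%) had an adjusted p under 0.05, the smallest adjusted p was 0.9998, and 223 genes had an unadjusted p under 0.05. The other 6 settings tried also gave 0 genes, with 150 to 457 at an unadjusted p under 0.05. The test has 1 residual degree of freedom per gene, from the difference between AE17 and MC38, and assumes that LLC varies like them. The 5 genes with the smallest unadjusted p upward were Cdsn at 3.13 ± 0.50 (SE), the circadian repressor Bhlhe41 at 2.56 ± 0.43, the zinc importer Slc39a10 at 2.50 ± 0.42, Cgref1 at 2.47 ± 0.43 and Ano3 at 2.42 ± 0.43. Downward they were Stc1 at -4.11 ± 0.60 (SE), Slco4a1 at -2.97 ± 0.43, the fatty acid elongation enzyme Hacd4 at -2.61 ± 0.42, Prxl2a at -3.66 ± 0.60 and the histone gene H4c17 at -2.43 ± 0.43. Ano3 lay under the floor on each AE17 and MC38 array, and Stc1 on each of these but AE17 sh Spp1. Both reached the floor in their mean through 1 bright LLC array, sh Spp1 for Ano3 and sh Ctrl for Stc1. Their differences and SEs thus rest on dim signal in the other lines. Bhlhe41, Slc39a10 and Cgref1 were above 1 in LLC and below -1 in both other lines. Hacd4 was the opposite, at -1.31 in LLC and 1.32 and 1.29 in AE17 and MC38.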

How the data were processed

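RNA of 6 cultures was hybridised to 1-colour whole-transcript arrays after biotin labelling, per the labels' protocols. The deposited table holds 1 linear intensity per probe set and array, 41345 probe sets in all. RMA is named in the submitters' processing notes and GeneSpring GX 12.5 in the design text. Build and annotation are not given in the sources used here. The medians of the deposited intensities differed between arrays, 64.2 and 37.2 in LLC.

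Intensities were log2 transformed and quantile normalised over 6 arrays with limma 3.58.1 in R 4.3.3. Genes were named from the platform annotation, where 23521 probe sets carried 1 symbol, 1814 several and 16010 none, and each gene was read from its brightest probe set. Tested genes, 16797, reached the 30th percentile in their mean over arrays. Counted genes also had to reach that floor on at least 1 LLC array. Groups came from sample titles. Ratios within a line had no test. For the difference between lines, limma's lmFit and eBayes used terms for line, hairpin and hairpin by LLC, with p-values adjusted by Benjamini-Hochberg and called at 0.05, and the script was tested on simulated data.

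The gene lists, 58 in number, and the comparisons were chosen with earlier results of these data known. Named genes are the 15 highest and 15 lowest, members of the lists with the 3 highest and 3 lowest first, and the 5 differences each way with the smallest p, passing over clone names, predicted genes, olfactory and vomeronasal receptors and nucleolar and micro RNAs recognised by their names, which left Rnu3a in. Of 1295 listed genes 1172 matched, 24 through another symbol. Promoter sequences are from RefSeq. Alternatives covered scaling, offset, floor, probe sets and thresholds. Figures used matplotlib 3.10.9.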

Additional observations from a re-analysis of the deposited data

How the results depend on the processing

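Each LLC value is 1 array against 1 array, so no alternative measures the spread between cultures, and the cause of each change below was not tested. The genes at least 1 log2 unit higher and lower numbered 285 and 291. They became 133 and 2516 in unnormalised intensities, 2693 and 139 after centring arrays on their medians, 1337 and 1238 at a threshold of 0.58, and 24 and 26 at 2. Under the other 7 alternatives they stayed within 1.5 times, and the split between higher and lower was near even. The test against the other lines gave 0 genes under each of its 6 alternatives. Leaving out AE17 or MC38 left no residual degrees of freedom, so only signs could be compared. The 10 genes with the smallest unadjusted p kept their sign both ways. They were chosen by this same difference, which favours that outcome, so it is no measure of robustness. Of 364 named genes 113 were past 1, and 0 of these changed sign. The named genes were chosen largely by the size of this same ratio, which again favours that outcome. Relative to all genes, 105 of the 364 ratios moved by 0.45 or more in the values as deposited. Of 58 list medians, taken relative to all genes, 8 that lay 0.1 or more from 0 changed sign. In the values as deposited 45 others moved by 0.1 or more and 7 by less. The changes of sign in the values as deposited were mitosis at 0.16, mesenchymal genes at 0.13, collagen maturation enzymes at 0.14, T and B cell markers at -0.21, calcium channels and carbonic anhydrases at -0.027 and tubulins at 0.0011. Tubulins were also at 0.061 when probe sets of a gene were averaged, MHC class I presentation at -0.042 with cyclic loess, and cytokines at 0.62 with the floor at the 50th percentile. No paired analysis was possible because LLC has 1 array per group and the labels give no replicate numbers, although the line was a term in the test against AE17 and MC38.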

Other observations

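Further lists in LLC are given as values. Imprinted genes, expressed from 1 parental copy, had a median log2 ratio of 0.10 over 22 counted genes. Mest, a hydrolase-like gene, read 6.64 and 8.19 on the sh Ctrl and sh Spp1 arrays, Grb10, an adaptor that dampens insulin signalling, 9.09 and 10.06, and the zinc finger gene Peg3 10.39 and 8.85. The non-coding RNA Airn was below 0 in each line, with -1.03 in LLC, -0.78 in AE17 and -0.93 in MC38. In the list that joins calcium channels, carbonic anhydrases and Ano3, the genes at least 1 higher were Car6, Cacna1i, Ano3, the channel subunit Cacna2d1 at 1.5 and Car2, a cytosolic carbonic anhydrase, which went from 5.37 to 6.96. Car5b, of mitochondria, was at -1.36.

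Lipid genes were mixed. Lpl, lipoprotein lipase, read 6.39 and 8.0, and the receptor Pparg 6.34 and 7.15, while Fabp4 was the lowest of the adipocyte list at -4.58. Crabp1, a carrier of retinoic acid, was at -1.15 and Rbp4, the carrier of retinol in plasma, at -0.89, with -2.29 in AE17 and -0.89 in MC38. Cholesterol synthesis had 13 of 19 genes below 0 and a median of -0.19, against 1.01 in AE17, with Fdps, which makes farnesyl diphosphate, lowest at -0.99. Among lysosome and autophagy genes Map1lc3b, which coats autophagosomes, was at -1.12 and the lysosomal hydrolase Hexa at 0.88. Of the mesenchymal list S100a4, a calcium-binding protein, read 10.10 and 8.41, and Cdh2, N-cadherin, 7.83 and 8.68. Bnc1, a transcription factor of mesothelium and other epithelia, read 8.15 and 6.47.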
